A study of Mus musculus with 37 samples.

Results

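The Hira complex and the genes that work with it on histone H3.3 were followed across the study as 10 genes: Hira, Cabin1, Ubn1, Ubn2, Asf1a, Asf1b, H3f3a, H3f3b, Daxx and Atrx. They were taken by symbol, and all 10 had a row in each of the 4 RNA-seq tables, among 25053 genes in the ZH table, 19033 in the CabZ GV table, 24305 in the CabZ 2-cell table and 15855 in the injection table. The study asked what the maternal Hira complex does as oocytes prepare for embryo development. ZH Het and ZH KO were germinal vesicle (GV) oocytes, the fully grown stage before meiosis resumes, from C57BL/6 mice with 1 or both Hira alleles conditionally deleted. CabZ Het and CabZ KO were GV oocytes with the same arrangement at Cabin1, and 2-cell embryos that developed from such oocytes. Both the Het and the KO groups carried Zp3-Cre, which deletes floxed exons in growing oocytes, so the controls were themselves heterozygous and no undeleted oocytes of these lines were compared here. The deletion is in the female germline, and whether the 2-cell embryos of the CabZ line were fertilised is not said in the labels. A fertilised embryo would also carry the father's Cabin1 allele, so CabZ KO embryos need not lack the gene. Each of these 6 groups had 4 libraries; by the methods each was made from 10 oocytes together, but GEO's records name individual cells. Nothing says that the libraries of a group came from separate animals, so p-values measure the spread between libraries. The last table held 2-cell embryos grown parthenogenetically from wild-type C57BL/6 oocytes injected with GFP RNA (4 libraries) or with Zscan4d RNA (3 libraries, here Zscan4 OE for overexpression). ATAC-seq, which maps open chromatin by transposase insertion, covered CabZ GV oocytes, with 3 libraries of each genotype and about 100 oocytes per library. Ages of the mice were not given in the sources used here.

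Histone H3.3 is the form of histone H3 that can be placed into chromatin outside DNA replication, which makes it the main H3 available to a non-dividing oocyte. Hira, with Cabin1 and a ubinuclein (Ubn1 or Ubn2), deposits it at genes and in the decondensing sperm nucleus after fertilisation, and the Asf1 proteins hand H3-H4 dimers to that complex. H3f3a and H3f3b are separate genes that encode the same H3.3 protein, and Daxx with the remodeller Atrx forms the other H3.3 pathway, known for heterochromatin and telomeres.

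The unit throughout is CPM (a gene's reads scaled to a fixed total per library), restored from the deposited values. A member passed the test when limma on log2(CPM + 1) gave a Benjamini-Hochberg adjusted p under 0.05 over all genes with a mean of at least 1 CPM. Fold changes are on that log2(CPM + 1) scale, which understates the change of low genes. The recovered read totals on genes were 8993656 to 15073430 in the ZH libraries, 9112071 to 12463524 in CabZ GV oocytes and 9883386 to 21860979 in the injected embryos. In CabZ 2-cell embryos they moved with the genotype, at 7945331 to 8235883 in Het and 5817968 to 6328304 in KO libraries. The genes of the ZH table held 74.2 to 74.7% in Het and 66 to 68.2% in KO libraries of all reads that the authors' scaling counted. All 10 oocyte markers (Zp1 to Zp3, Gdf9, Bmp15 and 5 others) had means above 1 CPM in every group, with sums of 23604 to 25167 CPM in ZH Het and 13579.7 to 21629.9 CPM in ZH KO. Of these 10, 3 (Bmp15, Mos and H1foo) were lower in every ZH KO than in every ZH Het library, and none was higher. Bmp15 was at 2014 to 3112 CPM in ZH Het and 384 to 868 CPM in ZH KO. Mos was at 535 to 666 and 204 to 308 CPM, and H1foo at 4662 to 7064 and 2715 to 3641 CPM. In CabZ 2-cell embryos, 8 of those 10 (not Zp3 or Dppa3) were higher in every KO than in every Het library. Among them Gdf9 was at 67.7 to 97.1 CPM in Het and 169.5 to 534 CPM in KO, and Ooep at 55.4 to 143 and 332 to 1167 CPM. Of 10 cumulus and granulosa markers, 6 had rows in the CabZ GV table, and their sum was 39.5 to 52.9 CPM in CabZ Het and 79.8 to 120.3 CPM in CabZ KO. That sum was carried by Cyp19a1, at 36.7 to 49.8 CPM in Het and 50.9 to 69.3 CPM in KO, and in KO also by Fshr, at 0.561 to 1.23 CPM in Het and 27.8 to 49.9 CPM in KO. The other 4 had means under 1 CPM in both groups. Fshr stood apart by genotype in the other deletion comparisons too, at 0.36 to 2.9 CPM in ZH Het and 4.37 to 12.1 CPM in ZH KO, and at 0 in CabZ Het and 6.67 to 13.8 CPM in CabZ KO 2-cell embryos. In the CabZ 2-cell table the blood and immune markers (5 of 6 with rows) summed to 82.8 to 151 CPM in CabZ Het and 133 to 928 CPM in CabZ KO. The higher KO sums came with Lyz2, at 0 to 3.52 CPM in Het and 8.39 to 818 CPM in KO, and Tyrobp, at 0 in Het and 0 to 79.9 CPM in KO. Ptprc was at most 0.135 CPM in Het and 0.479 to 2.52 CPM in KO, while Cd74 (19 to 84.4 and 2.41 to 39 CPM) and Hba-a1 (43.2 to 93.2 and 25.3 to 89.8 CPM) overlapped. The only stroma marker with a row in both GV tables, Dcn, was at 0.905 to 2.59 CPM in ZH Het and 5.94 to 10.2 CPM in ZH KO, and at 1.53 to 3.61 CPM in CabZ Het and 0.436 to 3.51 CPM in CabZ KO oocytes, which overlap. The 10 early 2-cell markers, such as Zscan4c and Zscan4d, summed to 19.9 to 27.5 CPM in ZH Het and 545 to 934 CPM in ZH KO, and the 7 of them with rows in the CabZ GV table to 33.1 to 39.9 and 125 to 268 CPM. Zscan4d itself was at 332 to 711 CPM in GFP and 336 to 403 CPM in Zscan4 OE embryos, which overlap. Its row thus does not show more Zscan4d in these injected embryos. The paper reported the overexpression against uninjected oocytes, by qRT-PCR, immunofluorescence and western blot. Of the 10 markers, 5 were lower in every Zscan4 OE than in every GFP library, and none was higher. The part of these other transcripts in the members' differences was not tested, and in such libraries fewer cells that hold a transcript and less of it per cell cannot be told apart.

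Of the members tested, 6 of 9 passed the test in ZH KO oocytes, 3 of 9 in CabZ KO oocytes and 3 of 10 in CabZ KO 2-cell embryos. In ZH KO GV oocytes, Cabin1, Ubn1, Ubn2 and Atrx fell, Asf1a and H3f3b rose, Asf1b, H3f3a and Daxx did not pass the test, and Hira itself had too few reads to be tested. That is 4 of 9 tested members lower and 2 of 9 higher, where 26.3% of all tested genes were lower and 27.4% higher. The oocyte markers Bmp15, Mos and H1foo were also lower in every ZH KO library and none was higher, and their part was not tested. With libraries shifted to a common median the members' calls were the same, while all genes went from 3754 higher and 3605 lower to 4609 higher and 2671 lower and their median log2 fold change from -0.04 to 0.16. In CabZ KO GV oocytes, Cabin1 fell and H3f3b and Daxx rose, 1 of 9 lower against 5.55% of all genes and 2 of 9 higher against 9.31%. Cabin1, the only member that fell, is the gene these mice delete, so its fall is no result about the members. In CabZ KO 2-cell embryos, Hira, Cabin1 and H3f3a fell, 3 of 10 against 19.2% of all genes, again with the deleted gene Cabin1 counted. No member rose by this test (0 of 10, against 25.5% of all genes). At an unadjusted p under 0.05 none of the 10 rose either. The share of all genes that rose at that level was not computed and is at least the 25.5% given above. In these embryos the oocyte markers above were higher in KO libraries, and their part in the members' differences was not tested. After Zscan4 injection no member passed limma's adjusted test, and 2 of 9 (Cabin1 and Asf1b) were higher at an unadjusted p under 0.05 and none lower, against 8.84% of all genes higher and 7.63% lower at that level. By adjusted p 0.0606% of all genes were higher and 0.675% lower in that comparison. In 3 of those 9 (Cabin1, Asf1b and H3f3b) every Zscan4 OE library lay above every GFP library and in none below, against 8.01% and 6.87% of all genes. Of the 10 oocyte markers, 3 (Gdf9, Bmp15 and Nlrp5) were also higher in every Zscan4 OE library and none lower, and their part was not tested. The median log2 fold change of the tested members was 0.17 in ZH KO (all genes, -0.04), 0.09 in CabZ KO GV oocytes (all genes, -0.0022), -0.07 in CabZ KO 2-cell embryos (all genes, 0.18) and 0.30 after Zscan4 injection (all genes, 0.10).

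**Figure D1:**
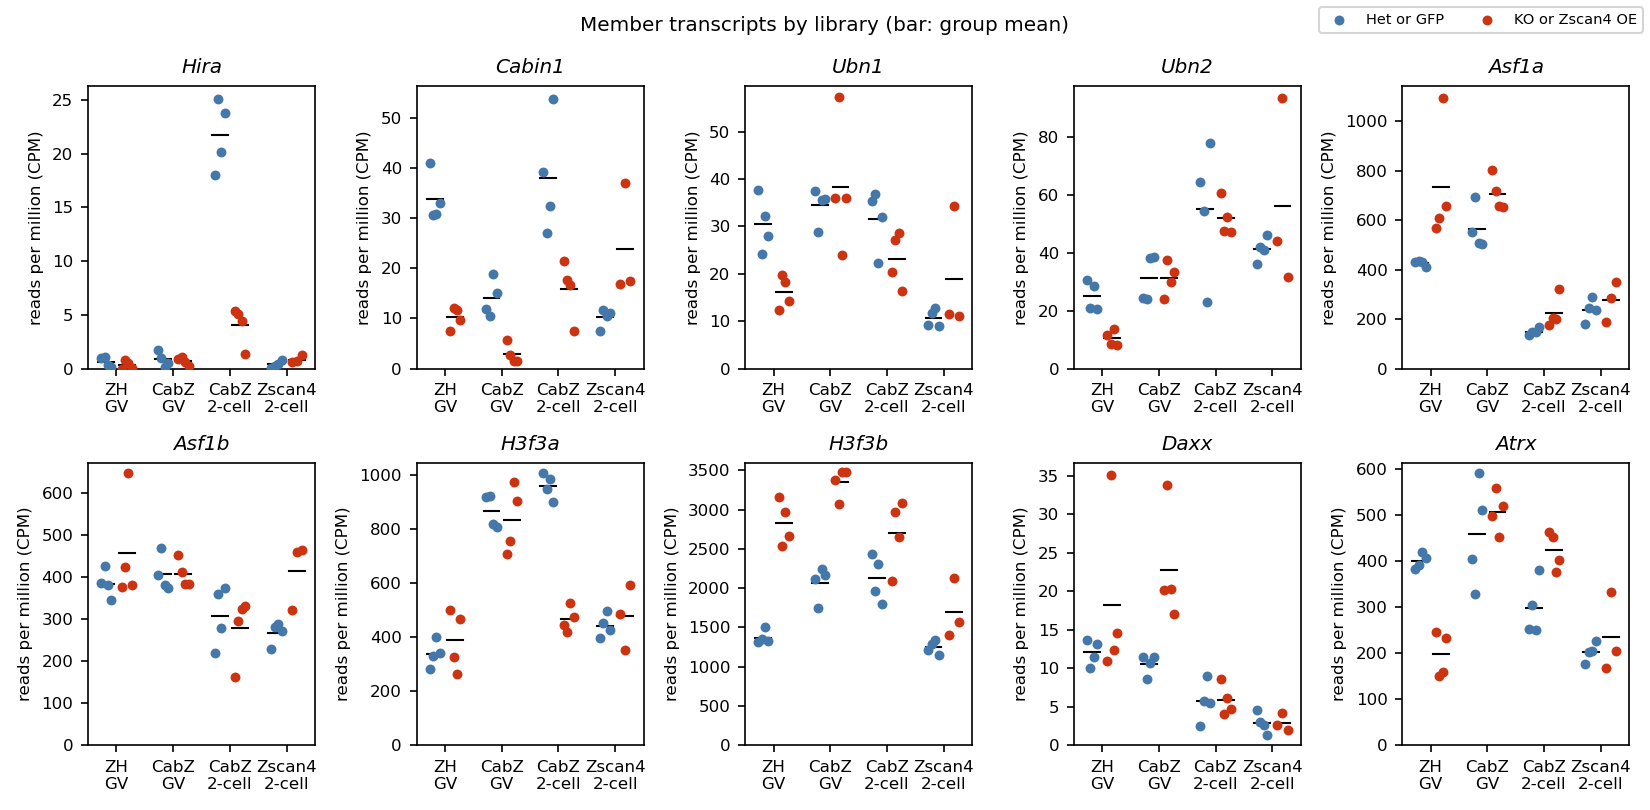
CPM (vertical axis, from 0) of each member in every library of the 4 RNA-seq tables; blue points are ZH Het, CabZ Het or GFP libraries, red points ZH KO, CabZ KO or Zscan4 OE libraries, and the bar is the group mean. All 4 ZH KO libraries sit above the ZH Het libraries for H3f3b and below them for Cabin1, Ubn1, Ubn2 and Atrx.

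**Figure D2:**
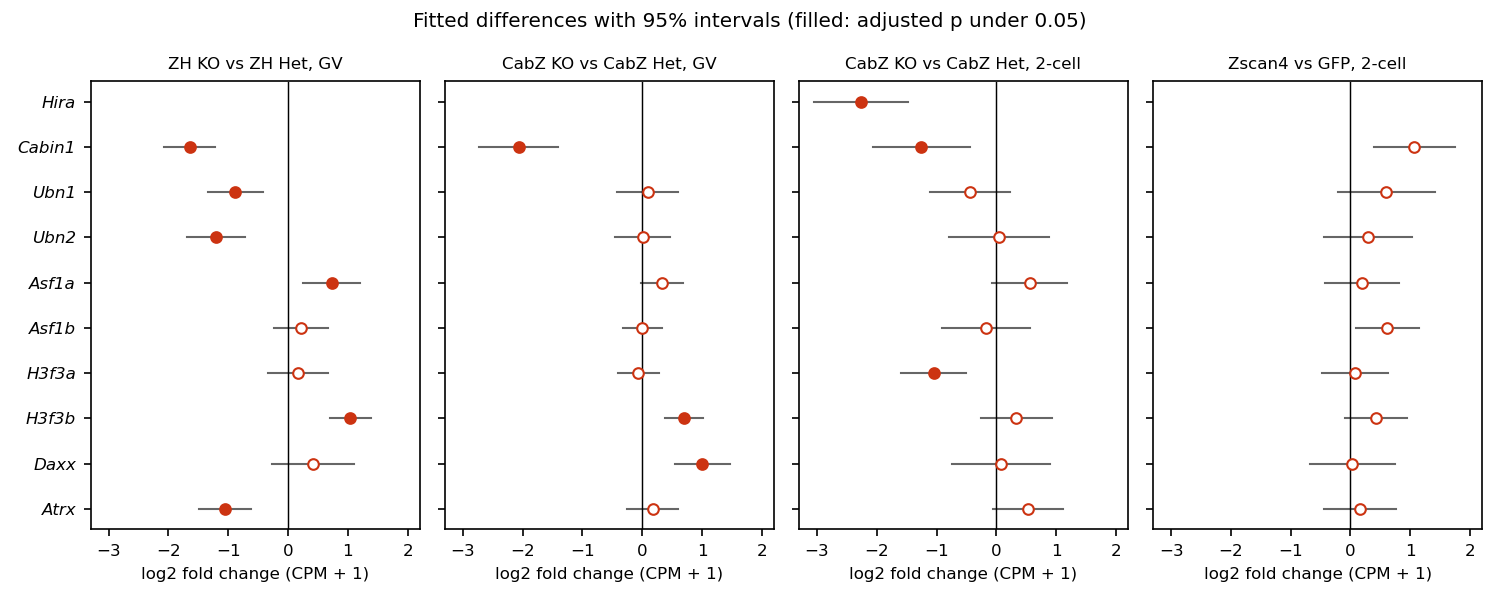
Fitted log2 fold change of log2(CPM + 1) for each member (horizontal axis) with its 95% interval, 1 panel per comparison; filled points have an adjusted p under 0.05, and Hira is blank where it was under the filter. Cabin1 lies left of 0 in the 3 deletion comparisons and right of it after Zscan4 injection, where it did not pass the test.

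Hira, the subunit that binds Asf1 and gives the complex its name (chromosome 16, 18877037 to 18970309, plus strand of GRCm38), was near 0 in 3 tables. ZH Het libraries held 1.01, 1.09, 0.302 and 0.0984 CPM and ZH KO libraries 0, 0.81, 0.528 and 0.0733 CPM, which is 2 to 14 and 0 to 13 reads. The groups overlapped (two-sided exact permutation test, p = 0.4, where the smallest p that 4 libraries against 4 can give is 0.0286). With so few reads, Hira's own row cannot check the ZH labels. CabZ GV oocytes were likewise low, with 0.175 to 1.68 CPM in Het and 0.215 to 1.09 CPM in KO libraries (exact permutation p = 0.771), as were the injected embryos, with 0.09 to 0.807 CPM after GFP and 0.579 to 1.24 CPM after Zscan4 (exact permutation p = 0.171, smallest possible 0.0571). CabZ 2-cell embryos were different: Het libraries held 18, 25, 20.2 and 23.8 CPM and KO libraries 5.31, 5.11, 4.42 and 1.37 CPM, with no overlap. Hira fell 4.78-fold there, by 2.26 ± 0.36 (SE) on the log2 scale (adjusted p = 0.00106). Hira shares 44.7% of its exonic bases with the same-strand gene Gm28539, and how reads in both were counted was not given in the sources used here. Gm28539 was listed at 0 in all ZH Het libraries and at most at 0.192 CPM in a ZH KO library, and Hira's level is uncertain where these genes share reads. Mrpl40, a mitochondrial ribosomal protein gene that starts beside Hira on the other strand, fell in the same 2-cell comparison by 1.41 on the log2 scale (adjusted p = 0.00527) and had log2 fold changes of -0.26 in ZH KO and -0.36 in CabZ KO GV oocytes, which did not pass.

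Cabin1, a large subunit also known as an inhibitor of calcineurin and Mef2 (chromosome 10, 75646112 to 75764341, minus strand), fell in all 3 deletion comparisons. CabZ Het GV oocytes held 11.9, 10.5, 18.8 and 15.1 CPM and CabZ KO GV oocytes 5.7, 2.73, 1.48 and 1.53 CPM. The KO libraries lay below every Het library, and the fitted difference was 4.18-fold lower, a drop by 2.06 ± 0.30 (SE) on the log2 scale (adjusted p = 0.00108), which is the direction the KO labels name. Het 2-cell embryos held 39.2, 27.1, 32.3 and 53.8 CPM and KO embryos 21.4, 17.7, 16.8 and 7.56 CPM. Here too no library overlapped, and Cabin1 fell 2.39-fold, by 1.25 ± 0.37 (SE) (adjusted p = 0.0184). Only an internal part of the gene is deleted in these mice and the value covers the whole gene, so remaining reads need not come from an intact allele. If the embryos were fertilised, their reads may also come from the father's allele. In the Hira line, ZH Het libraries held 40.9, 30.6, 30.8 and 33 CPM and ZH KO libraries 7.57, 12.1, 11.6 and 9.61 CPM. This was a 3.13-fold fall, by 1.65 ± 0.19 (SE) (adjusted p = 6.17e-05), of a gene that these mice do not delete. GFP embryos held 7.5, 11.6, 10.5 and 11.2 CPM and Zscan4 OE embryos 17, 37 and 17.4 CPM, without overlap; the log2 fold change of 1.07 ± 0.31 (SE) did not pass the test (adjusted p = 0.149). It was 0.72 without library B, the highest of the 3.

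The 250 bases before the RefSeq start of Cabin1 are shown because a peak of open chromatin lay within 500 bp of that start in libraries of both CabZ genotypes; capitals mark CCAAT boxes (CCAAT, the NF-Y motif) and GC boxes (GGGCGG, the Sp1 motif) on either strand.
Cabin1 (chr10:75764358-75764607, minus strand, GRCm38.p6): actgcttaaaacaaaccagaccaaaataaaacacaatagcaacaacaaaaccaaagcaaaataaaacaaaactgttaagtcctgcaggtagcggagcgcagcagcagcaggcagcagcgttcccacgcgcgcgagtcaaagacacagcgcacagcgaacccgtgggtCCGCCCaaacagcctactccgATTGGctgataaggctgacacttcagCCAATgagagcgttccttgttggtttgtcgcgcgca
This window held 2 CCAAT boxes and 1 GC box, and of 32851 such windows in the mouse RefSeq annotation 33.8% held a CCAAT box and 32.7% a GC box.

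Ubn1 and Ubn2, the alternative ubinuclein subunits that contact H3.3 itself, fell together in ZH KO oocytes. For Ubn1 (chromosome 16, 5050057 to 5086289, plus strand), ZH Het libraries held 37.6, 24.2, 32.1 and 27.9 CPM and ZH KO libraries 12.4, 19.8, 18.2 and 14.3 CPM. For Ubn2 (chromosome 6, 38433950 to 38524825, plus strand), the values were 30.8, 21.1, 28.5 and 20.6 CPM in ZH Het and 11.7, 8.39, 13.6 and 7.99 CPM in ZH KO. Neither gene's groups overlapped; Ubn1 fell 1.84-fold, by 0.88 ± 0.21 (SE) (adjusted p = 0.0045), and Ubn2 2.31-fold, by 1.21 ± 0.22 (SE) (adjusted p = 0.00102). In CabZ KO GV oocytes the Ubn1 groups overlapped (28.9 to 37.5 CPM in Het, 24 to 57.2 CPM in KO), with a log2 fold change of 0.09 and a 95% interval of -0.41 to 0.59. Ubn2 was at 24 to 38.6 and 24.2 to 37.6 CPM there, with an interval of -0.45 to 0.47. The falls fitted in ZH KO lie outside both intervals, but the tables were scaled separately and the difference between the lines was not tested. In 2-cell embryos of the CabZ line Ubn1 was at 22.2 to 36.9 CPM in Het and 16.3 to 28.6 CPM in KO libraries (interval -1.11 to 0.22) and Ubn2 at 22.9 to 78.3 and 47.2 to 60.8 CPM (interval -0.80 to 0.88). After injection, library B of Zscan4 OE stood apart for both genes: Ubn1 was at 11.6, 34.3 and 11 CPM in libraries A, B and C, and Ubn2 at 44, 93.6 and 31.6 CPM. Without library B their log2 fold changes against GFP were 0.09 and -0.14, in place of 0.60 and 0.30; neither passed the test.

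Upstream of both ubinuclein genes the promoter window held the cAMP response element TGACGTCA, which 1.55% of all windows hold on either strand, and which no other member's window held. The 40 bases around it are shown to compare the flanks of these paired genes, with the element in capitals.
Ubn1 (chr16:5049950-5049989, plus strand, GRCm38.p6): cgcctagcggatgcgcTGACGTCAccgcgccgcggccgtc
Ubn2 (chr6:38433787-38433826, plus strand, GRCm38.p6): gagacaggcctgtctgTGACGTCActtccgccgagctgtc
It began 91 bases before the start of Ubn1 and 122 before that of Ubn2. The match is a description of the letters and not a site.

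Asf1a and Asf1b, paralogous chaperones that carry H3-H4 dimers to Hira and to the replication-coupled pathway, lay above every subunit of the complex per length in all 8 groups. ZH Het libraries held 432, 433, 431 and 409.5 CPM of Asf1a (chromosome 10, 53596757 to 53609225, plus strand) and ZH KO libraries 568, 610.0, 1095 and 657 CPM. Every KO library was above every Het library, and library 3 was the highest. Asf1a rose 1.66-fold, by 0.73 ± 0.22 (SE) on the log2 scale (adjusted p = 0.0152). Asf1b (chromosome 8, 83955507 to 83970197, plus strand) was at 386, 426, 382 and 345 CPM in ZH Het and 376, 424, 649 and 382 CPM in ZH KO, overlapping except for the same library 3, and did not pass (interval -0.23 to 0.67). Asf1a lies inside Mcm9 on the opposite strand and shares 48% of its exonic bases with it, in libraries whose counting is not stated to use strand. Mcm9 fell in ZH KO, by 0.67 on the log2 scale (adjusted p = 0.0041), from 37.5 ± 1.39 to 23.3 ± 2.18 CPM, a level far below that of Asf1a. In CabZ KO GV oocytes Asf1a was at 554, 693, 509.6 and 506 CPM in Het and 803, 717, 658 and 653 CPM in KO libraries, a log2 fold change of 0.33 ± 0.16 (SE) that did not pass (adjusted p = 0.209). Its 2-cell values were 134, 147, 149 and 169 CPM in Het and 178, 204, 202 and 322 CPM in KO embryos, without overlap, at 0.56 ± 0.28 (SE) (adjusted p = 0.129; 0.0461 when the spread was fitted as a function of expression). Asf1b had intervals of -0.32 to 0.33 in CabZ GV oocytes and -0.90 to 0.56 in 2-cell embryos. After injection Asf1b was at 228, 282, 289 and 273 CPM in GFP and 322, 459 and 465 CPM in Zscan4 OE embryos, with no overlap and a log2 fold change of 0.62 ± 0.24 (SE) that did not pass after adjustment (adjusted p = 0.252).

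Asf1b had the strongest promoter peak among the members, so its window is shown, with capitals as for Cabin1.
Asf1b (chr8:83955444-83955693, plus strand, GRCm38.p6): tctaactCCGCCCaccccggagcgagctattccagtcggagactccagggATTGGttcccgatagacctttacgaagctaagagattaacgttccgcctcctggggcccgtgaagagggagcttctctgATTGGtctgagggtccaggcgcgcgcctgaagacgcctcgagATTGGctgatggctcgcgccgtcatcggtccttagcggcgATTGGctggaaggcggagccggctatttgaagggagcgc
It held 4 CCAAT boxes and 1 GC box, against 33.8% and 32.7% of all windows with at least 1.

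H3f3b rose in GV oocytes of both lines, whereas H3f3a did not pass the test there and fell in CabZ KO 2-cell embryos. H3f3b (chromosome 11, 116021912 to 116027962, minus strand) was at 1309.8, 1346, 1501 and 1324 CPM in ZH Het and 3156, 2541, 2967 and 2668 CPM in ZH KO libraries. All KO libraries were above all Het libraries, with a 2.06-fold rise, 1.04 ± 0.16 (SE) on the log2 scale (adjusted p = 0.000331). In CabZ GV oocytes it was at 2120.5, 1751, 2247 and 2162 CPM in Het and 3376, 3068, 3484 and 3481 CPM in KO libraries. Again without overlap, this was a 1.62-fold rise, 0.70 ± 0.15 (SE) (adjusted p = 0.00807). In 2-cell embryos it was at 2434, 1964, 2305 and 1802 CPM in Het and 2089.5, 2964, 2646 and 3091 CPM in KO, with overlap and an interval of -0.25 to 0.93. GFP embryos held 1211, 1292, 1339 and 1143 CPM and Zscan4 OE embryos 1399, 2127 and 1573 CPM, without overlap, at 0.43 ± 0.24 (SE) (adjusted p = 0.388).

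H3f3a (chromosome 1, 180800832 to 180813943, minus strand) was at 1009.9, 949, 985 and 902 CPM in CabZ Het 2-cell embryos and 445, 417, 527 and 474 CPM in CabZ KO embryos. Every KO library lay below every Het library, a 2.07-fold fall, by 1.05 ± 0.25 (SE) (adjusted p = 0.00678). In GV oocytes H3f3a overlapped between genotypes in both lines, at 281 to 401 CPM in ZH Het and 263 to 499 CPM in ZH KO (interval -0.34 to 0.67) and 807 to 922 and 707 to 974 CPM in CabZ Het and KO (interval -0.41 to 0.28). Another 3 rows with H3f3a-like sequence moved with it in the 2-cell embryos: H3f3c fell by 0.98, H3f3a-ps1 by 0.85 and H3f3a-ps2 by 0.84 on the log2 scale (adjusted p = 0.0132, 0.037 and 0.0277). All are processed pseudogenes in GENCODE, reads may be split between them and H3f3a, and they are not independent of it. The noncoding Gm17275, on the opposite strand over 18.2% of the H3f3a exonic bases, fell by 1.07 (adjusted p = 0.00758) as well.

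Set against each other within a library, which needs no scaling between libraries, the H3.3 genes differed in balance in all 3 deletion comparisons. The ratio of H3f3b to H3f3a reads was 4.66, 4.09, 3.74 and 3.9 in ZH Het and 6.32, 7.8, 11.3 and 5.71 in ZH KO oocytes. CabZ GV oocytes had ratios of 2.31, 1.9, 2.74 and 2.68 in Het and 4.77, 4.05, 3.58 and 3.85 in KO libraries. CabZ 2-cell embryos had 2.41, 2.07, 2.34 and 2.0 in Het and 4.69, 7.11, 5.02 and 6.52 in KO libraries. No KO library reached down to a Het library of its own table. GFP embryos had 3.06, 2.85, 2.69 and 2.69 and Zscan4 OE embryos 2.87, 6.04 and 2.65, where library B alone was apart. The sum of both genes was 1708 ± 135 CPM (SD, n = 4) in ZH Het and 3222 ± 328 CPM in ZH KO oocytes, 2937 ± 181 and 4188 ± 291 CPM in CabZ GV oocytes, and 3088 ± 339 and 3163 ± 449 CPM in CabZ 2-cell embryos. The sums of KO libraries lay above those of Het libraries in oocytes of both lines and overlapped with them in embryos. The ratio is a description of values already tested above and was given no test of its own.

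**Figure D3:**
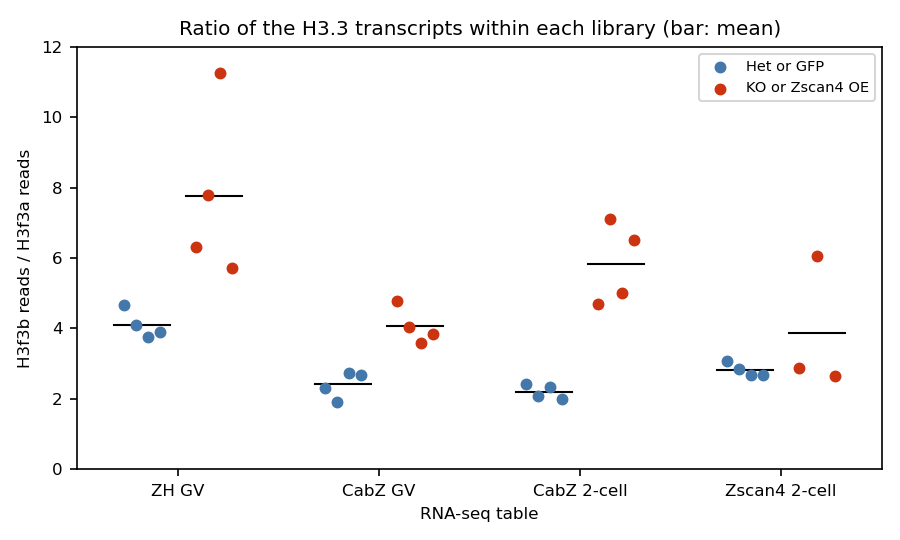
Reads of H3f3b divided by reads of H3f3a (vertical axis, from 0) in each library of the 4 RNA-seq tables, blue for Het or GFP, red for KO or Zscan4 OE, with the mean as a bar. KO libraries of each line and stage lie above their Het libraries, and library B of Zscan4 OE lies at 6.04, above the GFP range of 2.69 to 3.06.

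Their promoters are shown because the same protein is made from these 2 genes with different upstream sequence; capitals mark CCAAT boxes, GC boxes and the TATA motif TATAAA on either strand.
H3f3a (chr1:180813606-180813855, minus strand, GRCm38.p6): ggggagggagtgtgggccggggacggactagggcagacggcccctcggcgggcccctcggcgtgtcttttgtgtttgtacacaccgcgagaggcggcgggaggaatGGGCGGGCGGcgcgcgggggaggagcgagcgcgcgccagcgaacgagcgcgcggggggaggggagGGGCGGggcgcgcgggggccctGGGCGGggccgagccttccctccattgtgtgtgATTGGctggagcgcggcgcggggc
H3f3b (chr11:116024505-116024754, minus strand, GRCm38.p6): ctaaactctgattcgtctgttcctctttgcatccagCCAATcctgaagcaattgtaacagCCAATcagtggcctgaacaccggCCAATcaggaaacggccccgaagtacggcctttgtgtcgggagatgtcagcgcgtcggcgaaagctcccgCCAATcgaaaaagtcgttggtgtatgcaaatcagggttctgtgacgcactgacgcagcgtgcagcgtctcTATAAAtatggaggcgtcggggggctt
H3f3a had 77.2% GC content, 35 CpG, 4 GC boxes and 1 CCAAT box. H3f3b had 54% GC content, 19 CpG, 4 CCAAT boxes, no GC box and 1 TATAAA, a motif that 12.4% of all windows hold.

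Daxx, the H3.3 chaperone of the other pathway (chromosome 17, 33909414 to 33915590, plus strand), rose in CabZ KO GV oocytes. Het libraries held 11.5, 8.56, 10.6 and 11.4 CPM and KO libraries 20.2, 33.8, 20.2 and 17 CPM. Without overlap, this was a 2.01-fold rise, 1.01 ± 0.21 (SE) (adjusted p = 0.00754). In ZH oocytes it was at 13.7, 9.97, 11.5 and 13.1 CPM in Het and 11, 35.1, 12.4 and 14.5 CPM in KO libraries, where library 2 alone stood apart. The log2 fold change of 0.41 ± 0.31 (SE) did not pass and was 0.06 without that library. The 2-cell embryos held 2.51 to 9.02 CPM of Daxx in CabZ Het and 3.99 to 8.56 CPM in CabZ KO, 1.35 to 4.56 CPM after GFP and 1.92 to 4.16 CPM after Zscan4.

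Atrx, the remodeller that works with Daxx (chromosome X, 105797615 to 105929403, minus strand), fell in ZH KO oocytes, from 381, 390.2, 420.3 and 407 CPM in Het to 246, 150.3, 159 and 233 CPM in KO libraries. The groups did not overlap, and Atrx was 2.07-fold lower, by 1.05 ± 0.20 (SE) (adjusted p = 0.00136). CabZ GV oocytes held 329 to 592 CPM in Het and 451 to 557 CPM in KO libraries (interval -0.25 to 0.60). CabZ 2-cell embryos held 253, 305, 249.8 and 380.1 CPM in Het and 463, 452, 376 and 402 CPM in KO libraries, at 0.53 ± 0.27 (SE) (adjusted p = 0.131; 0.0354 with the spread fitted as a function of expression). The injected embryos overlapped, at 176 to 227 CPM after GFP and 166 to 332 CPM after Zscan4.

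The members that fell in ZH KO were also those with the most exonic sequence, 8272 bp for Ubn1 to 21757 bp for Atrx, whereas the tested members that did not fall had 2338 to 3638 bp. Across all genes with a mean of at least 10 CPM, 44.5% of those with 8000 bp or more of exon were lower in ZH KO (median log2 fold change -0.45, 1231 genes), against 26.8% of those under 4000 bp (median -0.03, 3629 genes). In CabZ KO GV oocytes these shares were 2.82% and 6.5%. The part of transcript length in the members' fall was not tested.

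Compared per kilobase of exon (CPM divided by the union of annotated exons, the one scale here on which genes can be ranked), the order of the members was similar across groups. H3f3b was the highest in all 8 groups, with 696 ± 73.6 (SD, n = 4) in CabZ Het GV oocytes, 714 ± 98.5 in CabZ Het 2-cell embryos and 460.4 ± 29.8 in ZH Het oocytes; the tables were scaled separately. H3f3a, Asf1a and Asf1b took places 2 to 4 in every group. Asf1b (165 ± 14.2) was above Asf1a (117 ± 3.14) without overlap in ZH Het oocytes, while Asf1a and H3f3a (96.3 ± 14.1) overlapped. In CabZ Het embryos the order was H3f3a (274 ± 13.4), Asf1b (132 ± 31.1) and Asf1a (41.1 ± 3.98), with no overlap between neighbours. Atrx took place 5 in all 8 groups (21.1 ± 5.32 in CabZ Het GV oocytes). Ubn1, Daxx, Cabin1 and Ubn2 followed at 4.16 ± 0.456, 3.34 ± 0.431, 1.16 ± 0.304 and 1.46 ± 0.383 in the same oocytes, where Ubn1 and Daxx overlapped, as did Ubn2 and Cabin1. Hira was last in 7 of 8 groups, at 0.137 ± 0.104 in CabZ Het GV oocytes, and took place 7 in CabZ Het 2-cell embryos, at 3.5 ± 0.522, where it overlapped Ubn1 and Cabin1.

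Of 28 other H3-H4 chaperones and deposition factors, 27 were tested in ZH KO oocytes, where 3 rose and 8 fell (median log2 fold change -0.27), against the 27.4% higher and 26.3% lower of all genes; means here and in the next paragraphs are ± SD of 4 libraries. Hat1, which acetylates new histone H4, rose from 163 ± 26.6 to 543 ± 85.3 CPM (adjusted p = 4.12e-05), the nucleolar chaperone Npm1 from 207 ± 32.5 to 699 ± 256 CPM (adjusted p = 0.000388), and Set from 3.74 ± 0.46 to 19.4 ± 4.59 CPM (adjusted p = 1.3e-05). The fallers included the CAF-1 subunit Chaf1a, Mcm2, Supt6 and the FACT subunit Ssrp1. In CabZ KO GV oocytes 1 of 27 rose, Nasp, which keeps soluble H3-H4, from 224 ± 56.3 to 363 ± 56.9 CPM (adjusted p = 0.0418), and none fell by the test (all genes, 9.31% higher and 5.55% lower). In CabZ KO 2-cell embryos 4 of 28 rose and 5 fell (median -0.40), where 25.5% of all genes rose and 19.2% fell. Npm2, the oocyte nucleoplasmin, rose from 139.9 ± 42.3 to 531 ± 45.3 CPM (adjusted p = 0.000875), in libraries where 8 of 10 oocyte markers were also higher in KO, whose part was not tested. Nasp fell from 456 ± 87.3 to 159.9 ± 54.5 CPM (adjusted p = 0.00471), and Set from 178 ± 19 to 56.7 ± 15.4 CPM (adjusted p = 0.00151). Nasp thus changed in opposite directions between CabZ oocytes and CabZ embryos. Set did so between ZH oocytes and CabZ embryos, where the deleted gene differs as well as the stage. These differences were not themselves tested.

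Among 15 silencing partners of Daxx and Atrx, 3 rose, Sp100 and Cbx3 among them, and 4 fell (Pml, Setdb1, Cbx5 and Suv39h2) in ZH KO oocytes (median 0.04), against 27.4% and 26.3% of all genes. Suv39h2, an H3K9 methyltransferase, went from 109.8 ± 12.4 to 49.8 ± 21.4 CPM (adjusted p = 0.00279), and Cbx5, which encodes HP1 alpha, from 51.3 ± 3.73 to 33.1 ± 2.87 CPM (adjusted p = 0.00698). In CabZ KO GV oocytes Sp100 alone passed, as higher, of 14 tested (all genes, 9.31% higher and 5.55% lower). In CabZ KO 2-cell embryos 4 rose and 5 fell of 15 (median -0.53), against 25.5% and 19.2% of all genes: Sumo2 went from 676 ± 181 to 114 ± 26.3 CPM (adjusted p = 0.000425), the corepressor Trim28 from 40.4 ± 12.5 to 10.5 ± 2.62 CPM (adjusted p = 0.00155) and Cbx3, which encodes HP1 gamma, from 55.6 ± 12 to 16.8 ± 5.83 CPM (adjusted p = 0.00295).

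Of 9 factors linked to H3.3 deposition and reading, 5 fell and 1 rose (Rpa3) in ZH KO oocytes (median -0.56), against 26.3% lower and 27.4% higher of all genes. The methyltransferase Nsd2 went from 17.1 ± 2.28 to 6.9 ± 2.0 CPM (adjusted p = 0.000861), Zmynd11, a reader of H3.3 methylated at lysine 36, from 16.5 ± 2.05 to 8.33 ± 1.31 CPM (adjusted p = 0.00161), and the H3K36 methyltransferase Setd2 from 57 ± 14.2 to 32.9 ± 6.42 CPM (adjusted p = 0.0133). No member of that list passed in CabZ KO GV oocytes (9 tested), against 9.31% higher and 5.55% lower of all genes. In CabZ KO 2-cell embryos 3 fell and 1, Chd2, rose (median of the list -0.18), against 19.2% lower and 25.5% higher of all genes. Rpa2 went from 139.5 ± 35.5 to 38.5 ± 8.08 CPM (adjusted p = 0.00128), Setd2 from 419.8 ± 43.2 to 135 ± 61.6 CPM (adjusted p = 0.00679) and the remodeller Chd1 from 108 ± 14.7 to 45.8 ± 12.5 CPM (adjusted p = 0.00751). Of the calcineurin and Mef2 genes that Cabin1 is known to bind or restrain, 2 of 7 tested rose (Ppp3ca and Mef2a) and 2 fell (Ppp3cc and Mef2d) in ZH KO, where the shares of all genes were 27.4% and 26.3%. None of 7 passed in CabZ KO GV oocytes (all genes, 9.31% higher and 5.55% lower). In CabZ KO 2-cell embryos 1 of 7 fell and none rose (all genes, 19.2% lower and 25.5% higher). This was Mef2a, from 26.9 ± 11.3 to 11.5 ± 4.6 CPM (adjusted p = 0.0278). In ZH KO the catalytic subunit Ppp3cc went from 24.1 ± 4.24 to 4.36 ± 3.86 CPM (adjusted p = 0.000563) and Ppp3ca from 6.95 ± 1.73 to 15.3 ± 7.29 CPM (adjusted p = 0.0197).

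The other histone H3 genes moved in CabZ KO 2-cell embryos, where 7 of 11 tested rose and 2 fell (median log2 fold change 1.25; all genes, 25.5% higher and 19.2% lower). All 7 were replication-coupled H3 genes, among them Hist2h3c2, from 5.59 ± 1.49 to 29.5 ± 8.65 CPM (adjusted p = 0.000717), and Hist1h3f, from 7.39 ± 2.62 to 29.9 ± 8.95 CPM (adjusted p = 0.00196). Their messages normally end in a stem-loop in place of a poly(A) tail, and these libraries captured poly(A) RNA. Members of this multigene family are near-identical and can share reads. The fallers were H3f3c, which may share reads with the member H3f3a and is not independent of its fall, and the centromeric Cenpa. Cenpa went from 518 ± 99 to 122 ± 29.9 CPM (adjusted p = 0.000636). Cenpa also fell in CabZ KO GV oocytes, from 126 ± 9.75 to 78.7 ± 8.99 CPM (adjusted p = 0.0106), the only call among 6 tested there (all genes, 9.31% higher and 5.55% lower). In ZH KO, 1 of 6 passed, Hist2h3c1, as lower (all genes, 27.4% higher and 26.3% lower). No gene of the 5 lists passed limma's adjusted test after Zscan4 injection (26, 14, 9, 5 and 4 tested), where 0.0606% of all genes were higher and 0.675% lower.

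Some genes followed members closely over the 31 libraries after each table's mean was removed, given as a description over 4401 genes with at least 10 CPM in all tables. H3f3a was most like H3f3c (Pearson r = 0.941), with which it may share reads. Atrx was most like Kdm7a (r = 0.902), Ubn2 like Eml4 (r = 0.875), Ubn1 like Nup50 (r = 0.871), H3f3b like Ftl1-ps1 (r = 0.865), Asf1a like Actg1 (r = 0.854) and Asf1b like Arl6ip1 (r = 0.779). The points share library depth and the genotype difference, so no p is given. Hira, Cabin1 and Daxx were below that level in a table.

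In CabZ GV oocytes, ATAC peaks lay within 500 bp of a member's RefSeq start in 17 of 60 pairs of member and library, 11 of 30 in Het and 6 of 30 in KO libraries. Asf1b had a peak in all 3 Het libraries, with fold enrichments over background of 6.3, 8.0 and 10.8, and in 1 KO library, A, with 5.15. H3f3b had peaks in the same 4 libraries, with 4.72, 4.36 and 6.74 in Het and 5.62 in KO A. Cabin1 had peaks in Het A (4.33), Het C (5.86) and KO A (5.62). Hira had them in Het C (4.69) and KO A (3.75), and Daxx in Het C (6.16) and KO B (4.5), the only member peak of that library. H3f3a was marked in Het B alone (4.36) and Ubn1 in KO A alone (3.75). Ubn2, Asf1a and Atrx had none in any library, and KO C had none at any member. The libraries also differed in yield: Het A, B and C had 43399, 67074 and 111327 peaks in all and KO A, B and C had 46070, 19160 and 29600. The share of 27025 RefSeq genes with a peak at a start was 8.33%, 16.4% and 29.2% in Het and 11.7%, 3.73% and 4.8% in KO libraries. Peak number and genotype cannot be told apart here, and 3 libraries against 3 cannot give an exact permutation p below 0.1. At a stricter q (−log10 q of at least 5) 7 pairs were left, all in Het libraries.

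**Figure D4:**
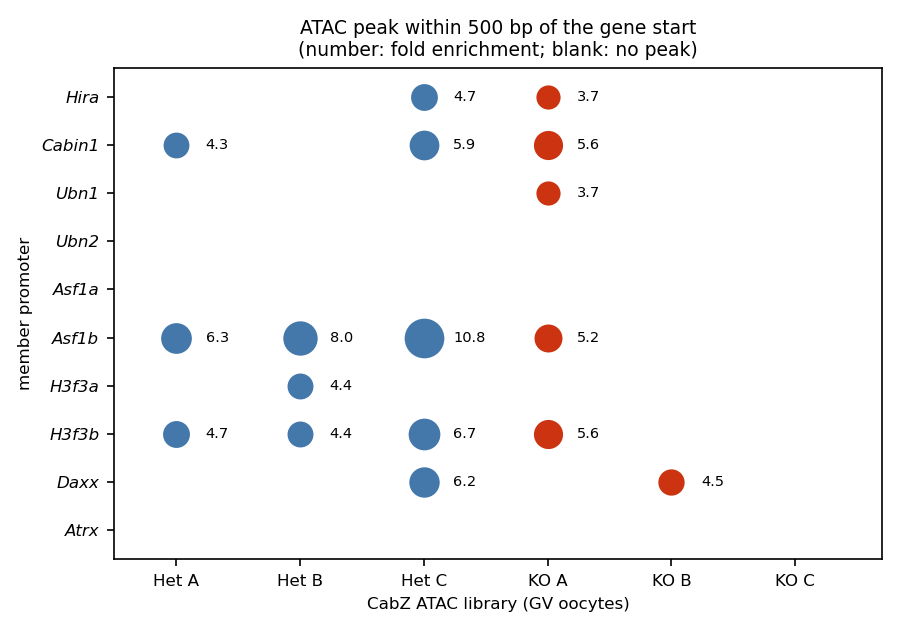
ATAC peaks within 500 bp of each member's start (rows) in the 6 CabZ libraries of GV oocytes (columns); the area and the number give the fold enrichment at the peak's summit, and a blank means that no peak was called. Asf1b reaches 10.8 in Het C, and KO C has no peak at a member.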

How the data were processed

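RNA was read from 31 libraries made with a Smart-seq2 kit that captures poly(A) RNA, and open chromatin from 6 ATAC-seq libraries of pooled oocytes. Per the study's methods and the submitters' processing notes, reads were trimmed, aligned to GRCm38/mm10 with STAR 2.5.3a and quantified in Partek; how overlapping genes and strands were counted is not given in the sources used here. The values of the ZH and injection tables were deposited as FPKM over the whole gene span, introns included, with 0.01 or 0.001 added to each. The values of the CabZ tables were deposited on a scale treated here as a score: reads divided by the span and by the span again, with every library scaled by the authors to the same total and 0.01 added. ATAC peaks were called by the authors per library with MACS2 after Bowtie2 2.3, and the deposited files give the fold enrichment over background and the −log10 p and q at each summit.

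From these values the offset was removed and the span undone to give CPM. Of the low values (under 20 reads), 74.5 to 81.5% per library were whole numbers of reads within 0.1, so reads are approximate and no count test was run. Counting error is smallest for H3f3b and largest for Hira, which had 14 reads or fewer in a ZH library. Each table was fitted on its own with limma 3.58.1 (R 4.3.3) on log2(CPM + 1), over all genes with a mean of at least 1 CPM. Members under that filter were given an exact permutation test of CPM (scipy 1.17.1). The limma step was tested on simulated data. The lowest chi-square per gene between replicates was 9.70 over 45 pairs, so no pair looked like copies of 1 library. Members were matched by symbol, positions came from GENCODE M21 and promoter sequences and starts from RefSeq (GRCm38.p6).

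The members and gene lists were chosen with earlier results of these data known. Besides the members, up to 3 genes were named per list and comparison, those past the test with the largest fold change at a mean of at least 10 CPM and no overlap between groups; genes that overlap a member, its copies, Fshr, Dcn and Mrpl40 were named besides, and 1 gene that this rule picked is not reported here. Libraries with the same number had correlated deviations of -0.34 to 0.31, so the numbers were not taken as pairs. Alternatives were the scaling, the filter, the pseudocount, the variance trend, the values per span and as deposited, a replicate block, each library left out, and the peak window and threshold.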

Additional observations from a re-analysis of the deposited data

Results flagged for a closer look

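In 3 of 70 groups of 4 libraries tested for members, 1 library lay far from the other 3 by Dixon's criterion at the 95% level, where chance marks about 1 group in 20. Asf1a, the H3-H4 chaperone, was at 409.5 CPM in ZH Het library 4 and at 431 to 433 CPM in the others, a narrow group in which the gap is small beside the rise in ZH KO. Hira was at 1.37 CPM in CabZ KO library 4 of the 2-cell embryos and at 4.42 to 5.31 CPM in the other KO libraries, all below the Het libraries. Asf1b was at 161 CPM in CabZ KO library 1 of the 2-cell embryos and at 296 to 333 CPM in the others, in a comparison that did not pass the test.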

How the results depend on the processing

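Of 621 values recomputed under alternatives, 587 kept their direction and call or stayed within 1.5 times, and 23 changed sign, none of them of a member past the test. Of these, 3 came after Zscan4 injection, with log2 fold changes of -0.038 for H3f3a and -0.090 for Daxx under median scaling and -0.19 for Daxx with the replicate block; the cause was not tested. The other 20 came from leaving out a library, over which log2 fold changes ran from -0.12 to 0.29 (Ubn1), -0.10 to 0.13 (Ubn2), -0.047 to 0.075 (Asf1b) and -0.14 to 0.014 (H3f3a) in CabZ KO GV oocytes. In CabZ KO 2-cell embryos they ran from -0.33 to 0.25 (Ubn2), -0.32 to 0.071 (Asf1b) and -0.20 to 0.31 (Daxx). After Zscan4 injection they ran from -0.14 to 0.63 (Ubn2), -0.011 to 0.43 (Asf1a), -0.092 to 0.28 (H3f3a), -0.20 to 0.23 (Daxx) and -0.13 to 0.37 (Atrx). On log2(FPKM + 1) per gene span, 3 of 6 tested members passed in ZH KO (Asf1a, H3f3b and Atrx, in place of 6 of 9) and 1 of 5 in CabZ KO 2-cell embryos (H3f3a, in place of 3 of 10); fewer members pass that filter. On the values as deposited, 1 member was tested and passed, H3f3b, in place of 3 members in CabZ KO GV oocytes and 3 in 2-cell embryos, where its log2 fold change became 0.74 (adjusted p = 0.0023). With the spread fitted as a trend, 5 members passed in CabZ KO 2-cell embryos, Asf1a (adjusted p = 0.0461) and Atrx (0.0354) being added by limma. The cause was not tested. For the values per span, as deposited and with the trend, the share of all genes that passed is not given here. Those counts are thus no result about the members. At −log10 q of at least 5, 7 ATAC peaks at members were left of 17. Pairs of member and table under the filter numbered 3, all of them Hira. They rose to 6 at a mean of at least 10 CPM and fell to 0 with no filter. Leaving out each library in turn, the counts of members past the test ranged from 6 to 6, 3 to 3, 3 to 3 and 0 to 0 in the order ZH KO, CabZ KO GV oocytes, CabZ KO 2-cell embryos and Zscan4 injection. With the replicate block the counts were 6, 3, 3 and 0, and no member's call changed; the libraries share only a number. Median scaling moved the median log2 fold change of all genes from -0.04 to 0.16 in ZH KO, 0.18 to 0.31 in CabZ KO 2-cell embryos and 0.10 to -0.02 after Zscan4 injection, with the members' calls as before. Hira had too few reads in GV oocytes and injected embryos for a change to be tested by limma.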
